A study of Homo sapiens with 12 samples.

Results

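SLC19A1, the reduced folate carrier, and 7 enzymes of folate metabolism (FPGS, GGH, TYMS, MTHFD1, MTHFD1L, SHMT1 and MTR) were followed across 4 groups of HCC1806 cells, as 8 of the 17013 genes in the table. They were chosen by their function in folate use, with earlier results from the same 12 libraries known, so their measured read counts, fold changes and calls are given as a description, without p-values. HCC1806 is a triple-negative breast cancer (TNBC) cell line. The experiment addressed how MLK4 (Mixed-Lineage Kinase 4, encoded by MAP3K21) bears on the response of these cells to doxorubicin, a drug that traps topoisomerase II on broken DNA.

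Before treatment the cells received either a control siRNA without a target (siNT) or 4 pooled siRNAs against MLK4 (siMLK4), and then 1 μM doxorubicin for 24 h or vehicle. The 4 groups were thus siNT with vehicle, siNT with doxorubicin, siMLK4 with vehicle and siMLK4 with doxorubicin, each with 3 mRNA-seq libraries. The labels name the vehicle as DMSO and also give these libraries a time of 0 h, whereas the Methods call the cells untreated. All libraries came from 1 cell line, whose transfection left some MLK4 transcript in the siMLK4 groups. The Methods state that the siRNA transfections were done in triplicate, and neither they nor the labels tie a library to a separate experiment, so p-values measure the spread between these libraries, which may be technical.

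MAP3K21 itself was read first, as a check on the siRNA labels. It had 553, 670 and 674 normalized reads in siNT vehicle libraries, 758, 856 and 772 in siNT doxorubicin libraries, 103, 94.7 and 88.7 in siMLK4 vehicle libraries, and 113, 138 and 94.4 in siMLK4 doxorubicin libraries. A normalized read is a read divided by the authors' size factor of its library. Relative to siNT cells, siMLK4 cells held 15.1% of MAP3K21 reads in vehicle and 14.5% with doxorubicin, and the siRNA groups did not overlap. Markers of basal breast epithelium were present, with a median over the 12 libraries of 13831 normalized reads for KRT5 and 3428 for EGFR, while the oestrogen and progesterone receptor genes ESR1 and PGR had medians of 64.9 and 3.63 and ERBB2 had 1719. The luminal genes GATA3 and FOXA1 had medians of 1984 and 265. The leukocyte marker PTPRC had a median of 9.86 and the fibroblast marker PDGFRB of 9.10, whereas the endothelial marker VWF had 36.2 and COL1A1, of fibroblasts, 332. CD3E, CD68, PECAM1, COL1A2 and DCN, which also mark other cell types, had no row in the table. Some of the measured markers moved between groups. With doxorubicin, log2 fold changes in siNT and siMLK4 cells were −1.24 and −2.20 for KRT5 and −1.34 and −1.30 for EGFR. CDH1 was at −0.28 and −0.34, and EPCAM at −0.04 and −0.05. In vehicle, siMLK4 cells differed from siNT cells by −1.05 for KRT14, −1.19 for KRT6A and 0.78 for COL1A1, against 0.06 for EGFR. Whether these shifts bear on the changes given below was not tested.

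Folates carry single carbon units for the synthesis of thymidylate, purines and methionine. Cells take folate up through the reduced folate carrier, the proton-coupled folate transporter or folate receptors, and retain it by adding a chain of glutamates to it. Serine is the main donor of these carbon units, mitochondria export them as formate, and the cytosol uses them to build nucleotides. Antifolate drugs such as methotrexate enter cells through SLC19A1, and TYMS is the target of fluoropyrimidines.

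Depth ranged from 16759025 to 19302248 reads per library. Libraries of a group stood apart from each other in how their values moved with transcript length. The deviation from the group mean correlated with length across genes at −0.40 in siNT vehicle replicate 1 and 0.39 in replicate 3, at 0.48 in siMLK4 vehicle replicate 1 and −0.48 in replicate 3, and at −0.39 in siNT doxorubicin replicate 1 and 0.36 in replicate 2. In the other 6 libraries it lay between −0.21 and 0.24. These correlations run over 16957 genes, which are not independent replicates.

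Sequences before a start of the 3 genes called lower with doxorubicin, and of TYMS as a member that was not, are shown for the letters they hold. Each is the 250 bases before the RefSeq start nearest to that of the GENCODE canonical transcript, on GRCh38.p14, 5′ to 3′ on the strand of the gene. The GENCODE spans of SLC19A1, MTHFD1 and MTHFD1L reach further upstream, to 45573365, 64388031 and 150865679, so their windows lie within the genes. The TYMS window ends just before its gene. Other starts were not searched. The window of SLC19A1 lies at chr21:45542441-45542690 (− strand), that of MTHFD1 at chr14:64388103-64388352 (+ strand), that of MTHFD1L at chr6:150866083-150866332 (+ strand) and that of TYMS at chr18:657403-657652 (+ strand). Capitals mark matches to the searched motifs for E2F (TTTCGCGC or TTTGGCGC), CRE (TGACGTCA), the C/EBP-ATF composite (TGATGNAAN), the E-box (CACGTG), NRF1 (GCGCA, any base, then GCGC) and NF-Y (CCAAT), on either strand.
SLC19A1: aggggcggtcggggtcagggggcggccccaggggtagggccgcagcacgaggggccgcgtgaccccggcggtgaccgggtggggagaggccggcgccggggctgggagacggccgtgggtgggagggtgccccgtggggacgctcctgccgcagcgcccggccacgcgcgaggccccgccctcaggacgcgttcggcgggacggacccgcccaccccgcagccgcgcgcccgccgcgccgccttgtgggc
MTHFD1: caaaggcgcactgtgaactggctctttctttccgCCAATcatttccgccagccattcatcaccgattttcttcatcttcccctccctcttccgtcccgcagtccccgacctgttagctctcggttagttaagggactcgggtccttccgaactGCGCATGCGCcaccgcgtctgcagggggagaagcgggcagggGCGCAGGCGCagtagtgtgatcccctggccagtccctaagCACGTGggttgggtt
MTHFD1L: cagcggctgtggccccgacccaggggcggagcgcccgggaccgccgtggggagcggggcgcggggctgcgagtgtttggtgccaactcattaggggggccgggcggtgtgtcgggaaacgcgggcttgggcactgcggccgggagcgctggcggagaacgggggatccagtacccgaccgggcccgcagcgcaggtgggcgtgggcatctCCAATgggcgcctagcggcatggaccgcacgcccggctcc
TYMS: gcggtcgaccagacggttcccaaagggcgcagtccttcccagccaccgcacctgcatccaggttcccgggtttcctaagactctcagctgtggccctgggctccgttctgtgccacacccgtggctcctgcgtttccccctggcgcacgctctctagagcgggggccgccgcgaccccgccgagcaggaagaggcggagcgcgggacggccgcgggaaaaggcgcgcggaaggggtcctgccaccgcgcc
MTHFD1 held 2 NRF1 matches, 1 E-box and 1 NF-Y match, and MTHFD1L held 1 NF-Y match. SLC19A1 and TYMS held none of these letters. SLC19A1 also held 4 copies of the GC box (GGGCGG, left in lower case), MTHFD1L held 2, and MTHFD1 and TYMS held 0. Of 35097 RefSeq windows of this length, 0.969% held the E2F letters, 1.65% CRE, 3.13% the composite, 6.34% the E-box, 5.08% NRF1, 32% NF-Y and 42.6% the GC box. The E-box can lie within longer motifs, and a match is a description of letters, not a bound site. The MTHFD1L window starts from a RefSeq start that lies 631 bases from the start of its GENCODE canonical transcript.

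The 4 siRNAs of the pool are shown because they define the siMLK4 groups. They are printed as sense strands, 5′ to 3′, and capitals mark bases 12 to 18, the 7 letters that a transcript shares when it can pair with the seed of the guide strand.
siRNA 1: ggaaagaugcuCAGAGAGauu
siRNA 2: aggagaagcccAAGGUAAauu
siRNA 3: agaagaaacgaGAGGGAAuuu
siRNA 4: agaacagauugCAAAGAAauu
The seed letters of siRNA 1 and siRNA 4 occurred in the annotated 3′UTRs of SHMT1 and MTR, those of siRNA 2 in MTHFD1L and MTR, and those of siRNA 3 in MTR. Of 13583 3′UTRs searched, 17.6% held the letters of siRNA 1, 11.4% those of siRNA 2, 17.3% those of siRNA 3 and 20.4% those of siRNA 4, and 44.3% held at least 1 of them. SLC19A1, FPGS, GGH, TYMS and MTHFD1 held none. The shares run over 3′UTRs of any length, and a longer sequence holds more matches at random. The canonical transcript of MTR has 10547 bases, against a median of 2872 over all genes. Whether the seed letters bear on any level given here was not tested.

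SLC19A1 was the member with the largest log2 fold changes with doxorubicin. This carrier (ENSG00000173638, chromosome 21, 45493572 to 45573365, − strand of GRCh38) had 598, 651 and 390 normalized reads in siNT vehicle libraries and 39.7, 28.5 and 20.3 in siNT doxorubicin libraries. In siMLK4 cells it had 322, 390 and 284 normalized reads with vehicle and 72.1, 58.4 and 81.7 with doxorubicin. All doxorubicin libraries lay below all vehicle libraries, and the siMLK4 doxorubicin libraries lay above the siNT doxorubicin libraries.

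In siNT cells the mean of SLC19A1 with doxorubicin was 5.4% of the vehicle mean, 29.5 ± 9.74 against 546 ± 138 normalized reads (SD, n = 3 each). In siMLK4 cells it was 21.3%, 70.7 ± 11.7 against 332 ± 53.4 (SD, n = 3 each). On the variance-stabilized log2 scale of the deposited values, which compresses the changes of weakly expressed genes, the fold change was −3.01 (SE 0.18) in siNT cells and −1.69 (SE 0.18) in siMLK4 cells. With log2(normalized reads + 8) these fold changes were −3.88 and −2.11.

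Between siRNA groups the sign of the SLC19A1 difference turned with treatment. Mean reads in siMLK4 cells were 60.8% of those in siNT cells with vehicle and 240% of them with doxorubicin, at log2 fold changes of −0.62 and 0.70 (SE 0.18 each). In vehicle the groups touched, since siMLK4 replicate 2 and siNT replicate 3 both had 390 normalized reads. The difference with doxorubicin was 1.09 with log2(normalized reads + 8) and 1.36 with library totals as the scale, and there it was past the threshold for a call. The difference between the doxorubicin responses was 1.32 (SE 0.25), which was not called. Without siNT vehicle replicate 3 it was 1.52 and was called, and the vehicle difference became −0.83 and was called. With the slope of each library on transcript length as a covariate, an alternative chosen after seeing the data, it was 1.35 and was called. The canonical SLC19A1 transcript has a GC content of 62.9%, against a median of 48.6% over all genes, and siNT vehicle replicate 3 had the most negative slope on GC content of the 12 libraries, at −0.102 log2 units per 10 points, for values taken as deviations from the mean of all libraries. Its part in the low SLC19A1 value of that library was not tested.

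**Figure D1:**
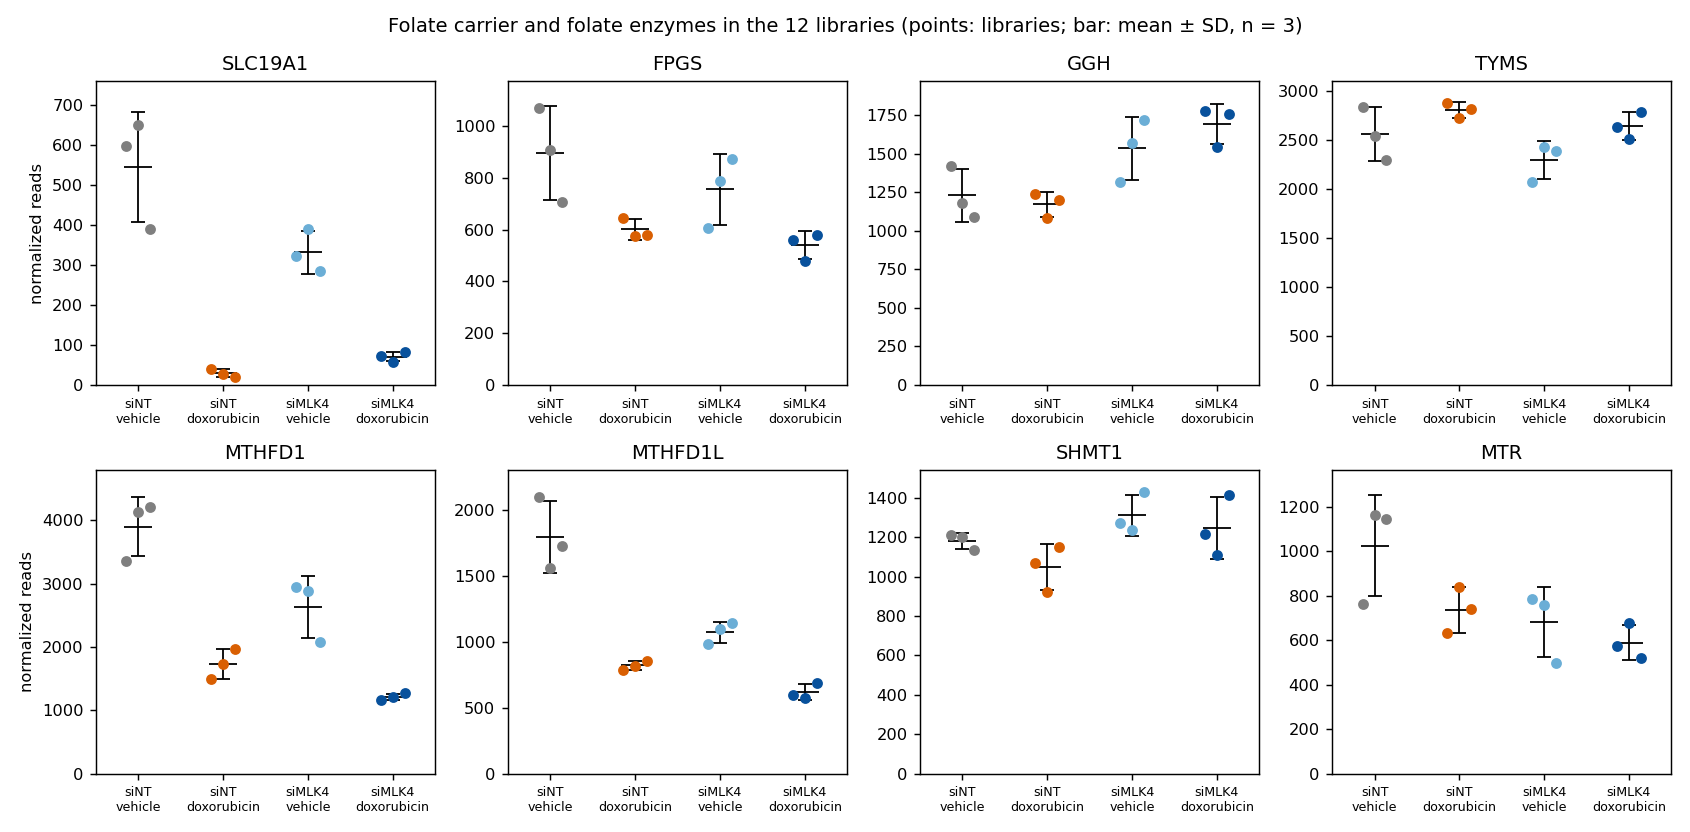
Normalized reads (y axis, from 0) of the 8 genes in the 4 groups (x axis), with 1 point per library and the mean ± SD (n = 3) as a bar. SLC19A1 lay between 20.3 and 81.7 in all doxorubicin libraries, MTHFD1 and MTHFD1L were also lower with doxorubicin, and TYMS stayed between 2077 and 2885 in all 12 libraries.

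Genes were counted as called when the adjusted p was below 0.01 and the log2 fold change beyond 0.75 in either direction. Comparisons share libraries, such as the siNT vehicle libraries, so their values are only set side by side. With doxorubicin in siNT cells, 3 of the 8 members were called lower (SLC19A1, MTHFD1 and MTHFD1L) and 0 higher. Of all genes, 10.6% were called lower and 12.1% higher in this comparison. In siMLK4 cells 2 of 8 were called lower (SLC19A1 and MTHFD1) and 0 higher, where 10.6% of all genes were called lower and 12.6% higher. The 8 members had a median log2 fold change of −0.48 with siNT and −0.30 with siMLK4, against 0.00 and 0.02 over all genes. Because the members were chosen with these results known, nothing is read from these shares.

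No member was called between siRNA groups by limma or by limma-voom. Of all genes, siMLK4 raised 2.51% and lowered 3.14% in vehicle, and raised 2.66% and lowered 2.93% with doxorubicin. The difference between the doxorubicin responses was called for 0.276% of all genes, in either direction, and for 0 of the 8 members. In bulk RNA, fewer cells expressing a gene and less RNA per cell cannot be told apart.

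**Figure D2:**
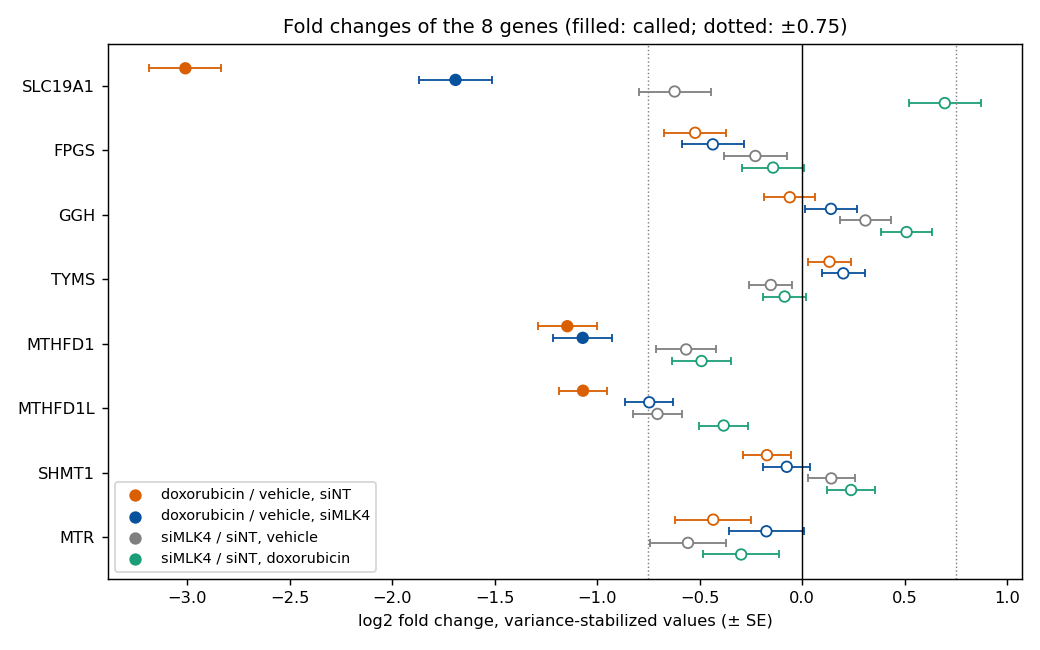
Log2 fold changes on the variance-stabilized scale (x axis, ± SE) of the 8 genes (y axis) in 4 comparisons marked by colour, where filled points passed the thresholds for a call and dotted lines stand at ±0.75. SLC19A1 lies farthest left, at −3.01 in siNT cells and −1.69 in siMLK4 cells with doxorubicin, and is the gene whose siRNA differences lie on opposite sides of 0 by more than 0.6.

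Folate is retained in cells by FPGS, which adds glutamates, and is released from that form by GGH, which removes them. FPGS had 1071, 907 and 708 normalized reads in siNT vehicle libraries and 645, 577 and 579 in siNT doxorubicin libraries. In siMLK4 cells it had 606, 786 and 873 with vehicle and 561, 480 and 580 with doxorubicin. In both siRNA groups all doxorubicin libraries lay below all vehicle libraries, but the log2 fold changes of −0.52 and −0.44 (SE 0.15 each) were short of the threshold. With library totals as the scale they were −0.32 and −0.28. The siMLK4 and siNT libraries overlapped in vehicle.

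GGH had 1420, 1180 and 1086 normalized reads in siNT vehicle libraries and 1236, 1081 and 1196 in siNT doxorubicin libraries. It had 1316, 1570 and 1717 in siMLK4 vehicle libraries and 1775, 1542 and 1756 in siMLK4 doxorubicin libraries. With doxorubicin all siMLK4 libraries lay above all siNT libraries, at a log2 fold change of 0.51 (SE 0.12). In vehicle this fold change was 0.31 (SE 0.12) and the groups overlapped, and the doxorubicin responses of −0.06 and 0.14 (SE 0.12 each) were not called. With library totals as the scale, these responses were 0.18 and 0.33, so that of siNT cells turned sign.

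The ratio of FPGS to GGH within a library does not depend on the size factor of that library. It can still move with the slopes of libraries on GC content and transcript length. The canonical transcript of FPGS has 63.7% GC and 2284 bases, and that of GGH 39.5% and 1248 bases. Whether this bears on the ratio was not tested. Per kb of canonical transcript the ratio was 0.412, 0.420 and 0.357 in siNT vehicle libraries and 0.285, 0.292 and 0.264 in siNT doxorubicin libraries. In siMLK4 libraries it was 0.252, 0.274 and 0.278 with vehicle and 0.173, 0.170 and 0.180 with doxorubicin. The ratio was thus highest in siNT vehicle libraries, at 0.396 ± 0.035, and lowest in siMLK4 doxorubicin libraries, at 0.174 ± 0.0053 (SD, n = 3 each). The siNT doxorubicin and siMLK4 vehicle libraries overlapped, and each of these groups lay apart from the highest and the lowest group.

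TYMS, which makes thymidylate from deoxyuridylate, was the most abundant member per kb. It had 2844, 2549 and 2298 normalized reads in siNT vehicle libraries and 2885, 2724 and 2816 with doxorubicin. The siMLK4 libraries had 2077, 2428 and 2389 with vehicle and 2633, 2512 and 2793 with doxorubicin. All 4 log2 fold changes lay between −0.15 and 0.20 (SE 0.10), and with library totals as the scale the doxorubicin responses were 0.38 and 0.39. TYMS overlaps ENOSF1 on the opposite strand, and the authors counted reads by strand.

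MTHFD1 interconverts the cytosolic folate forms that feed purine and thymidylate synthesis. It had 3362, 4130 and 4209 normalized reads in siNT vehicle libraries and 1499, 1732 and 1977 in siNT doxorubicin libraries. It had 2950, 2885 and 2075 in siMLK4 vehicle libraries and 1161, 1212 and 1267 in siMLK4 doxorubicin libraries. Within each siRNA group the doxorubicin libraries lay below the vehicle libraries, at 44.5% of the vehicle mean in siNT cells and 46% in siMLK4 cells. The log2 fold changes were −1.15 and −1.07 (SE 0.14 each), and both were called. Under either treatment all siMLK4 libraries lay below all siNT libraries, at log2 fold changes of −0.57 in vehicle and −0.49 with doxorubicin (SE 0.14 each), which were not called.

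MTHFD1L, the mitochondrial enzyme that releases formate, had 2095, 1560 and 1722 normalized reads in siNT vehicle libraries and 788, 818 and 857 with doxorubicin. In siMLK4 libraries it had 985, 1094 and 1138 with vehicle and 594, 573 and 690 with doxorubicin. The 4 groups did not overlap, and their order from high to low was siNT vehicle, siMLK4 vehicle, siNT doxorubicin and siMLK4 doxorubicin. The doxorubicin response was −1.07 (SE 0.12) in siNT cells, which was called, and −0.75 (SE 0.12) in siMLK4 cells, which missed the fold change threshold by less than 0.01. It was called in siMLK4 cells with log2(normalized reads + 8), at −0.79, and without siMLK4 vehicle replicate 1 or siMLK4 doxorubicin replicate 3, at −0.80 and −0.82. The siMLK4 difference was −0.71 in vehicle and −0.38 with doxorubicin (SE 0.12 each), and in vehicle it was called without siNT vehicle replicate 2, at −0.80. The difference between the doxorubicin responses of siMLK4 and siNT cells was 0.32 (SE 0.17).

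SHMT1, the cytosolic enzyme that moves a carbon unit from serine to folate, had 1209, 1198 and 1136 normalized reads in siNT vehicle libraries and 1069, 921 and 1151 with doxorubicin. In siMLK4 libraries it had 1270, 1235 and 1429 with vehicle and 1216, 1107 and 1415 with doxorubicin. The siNT groups overlapped, as did the siMLK4 groups, and the 4 log2 fold changes lay between −0.17 and 0.24 (SE 0.12 at most). With library totals as the scale both doxorubicin responses of SHMT1 turned sign, to 0.06 with siNT (from −0.17) and to 0.11 with siMLK4 (from −0.07), and the siMLK4 difference in vehicle went from 0.14 to 0.29.

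MTR, the vitamin B12-dependent methionine synthase, had 763, 1164 and 1147 normalized reads in siNT vehicle libraries and 633, 838 and 739 with doxorubicin. The siMLK4 libraries held 786, 756 and 500 with vehicle and 572, 677 and 519 with doxorubicin. Vehicle and doxorubicin libraries overlapped in both siRNA groups, and the log2 fold changes lay between −0.56 and −0.17 (SE 0.18 at most). MTR has the longest canonical transcript of the 8 members, at 10547 bases. Its lowest siNT vehicle library, replicate 1, and its lowest siMLK4 vehicle library, replicate 3, were the ones whose deviations ran against transcript length. Without siNT vehicle replicate 1 the doxorubicin response of MTR in siNT cells went from −0.43 to −0.62 and the siMLK4 difference in vehicle from −0.56 to −0.75. Without siMLK4 vehicle replicate 3 the response in siMLK4 cells went from −0.17 to −0.37 and the siMLK4 difference in vehicle to −0.36. With the transcript length slope as a covariate the responses were −0.24 and −0.08 and the vehicle difference −0.48. With library totals the responses were −0.22 in siNT cells and less than 0.01 from 0 in siMLK4 cells. MTR was not called under any of these settings.

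Levels were compared between members per kb of canonical transcript, in normalized reads per kb. In siNT vehicle cells the order was TYMS at 1589, MTHFD1 at 1237, GGH at 984, MTHFD1L at 519, SHMT1 at 467, FPGS at 392, SLC19A1 at 109 and MTR at 97.2. Library ranges of MTHFD1 and GGH overlapped there, as did those of MTHFD1L, SHMT1 and FPGS in turn, and those of SLC19A1 and MTR. In siNT doxorubicin cells GGH, at 938, stood above MTHFD1, at 550, with no overlap of libraries. SLC19A1 was then the lowest member, at 5.91 against 69.8 for MTR, and its libraries, from 4.06 to 7.95, did not overlap those of MTR, from 60.0 to 79.4. SLC19A1 was also the lowest of the 8 in siMLK4 doxorubicin cells, at 14.2 against 55.9 for MTR.

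Most members share little sequence with other genes. Cut into stretches of 50 bases, the transcripts of a member recurred in other genes for a share of 3.97% in MTHFD1, 2.42% in SHMT1 and at most 0.18% in the other 6 members. SLC19A1 overlaps COL18A1 on the opposite strand.

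SLC46A1, the proton-coupled folate transporter, was the other carrier with a call in both siRNA groups. It had 312, 312 and 322 normalized reads in siNT vehicle libraries and 113, 149 and 193 with doxorubicin. Its siMLK4 libraries held 569, 567 and 503 with vehicle and 184, 196 and 208 with doxorubicin. SLC46A1 fell with doxorubicin in siNT cells by 0.89 on the log2 scale (SE 0.13, adjusted p = 6.5e-05) and in siMLK4 cells by 1.28 (SE 0.13, adjusted p = 2.8e-06). Without siNT doxorubicin replicate 1 the fold change in siNT cells was −0.74, short of the threshold. In vehicle the siMLK4 libraries lay above the siNT libraries, at 0.70 (SE 0.13, adjusted p = 0.0016), which was short of the fold change threshold and past it with library totals, at 0.93, and with log2(normalized reads + 8), at 0.78.

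The ratio of SLC19A1 to SLC46A1 within a library, per kb, was 2.49, 2.72 and 1.57 in siNT vehicle libraries and 0.735, 0.894 and 0.736 in siMLK4 vehicle libraries. With doxorubicin it was 0.458, 0.249 and 0.137 in siNT libraries and 0.510, 0.387 and 0.511 in siMLK4 libraries. SLC19A1 thus had the more reads per kb of the pair in siNT vehicle libraries, and SLC46A1 had the more in every library of the other 3 groups.

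FOLR1, which encodes folate receptor alpha, was low in siNT cells, with 24.7, 13.5 and 25.8 normalized reads in vehicle libraries and 4.61, 4.07 and 12.2 with doxorubicin. With siMLK4 it had 104, 112 and 204 in vehicle libraries and 13.6, 18.3 and 15.4 with doxorubicin. FOLR1 rose with siMLK4 in vehicle by a log2 fold change of 1.54 (SE 0.18, adjusted p = 3.8e-05), to 657% of the siNT mean. It fell with doxorubicin in siMLK4 cells by 1.70 (SE 0.18, adjusted p = 3.5e-06), and in siNT cells its fold change was −0.53 (SE 0.18, adjusted p = 0.021). With log2(normalized reads + 8) or library totals the change in siNT cells was −0.98 or −1.36 and was called. The call in vehicle was lost with a replicate block among the groups compared, a fit in which no gene was called.

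**Figure D3:**
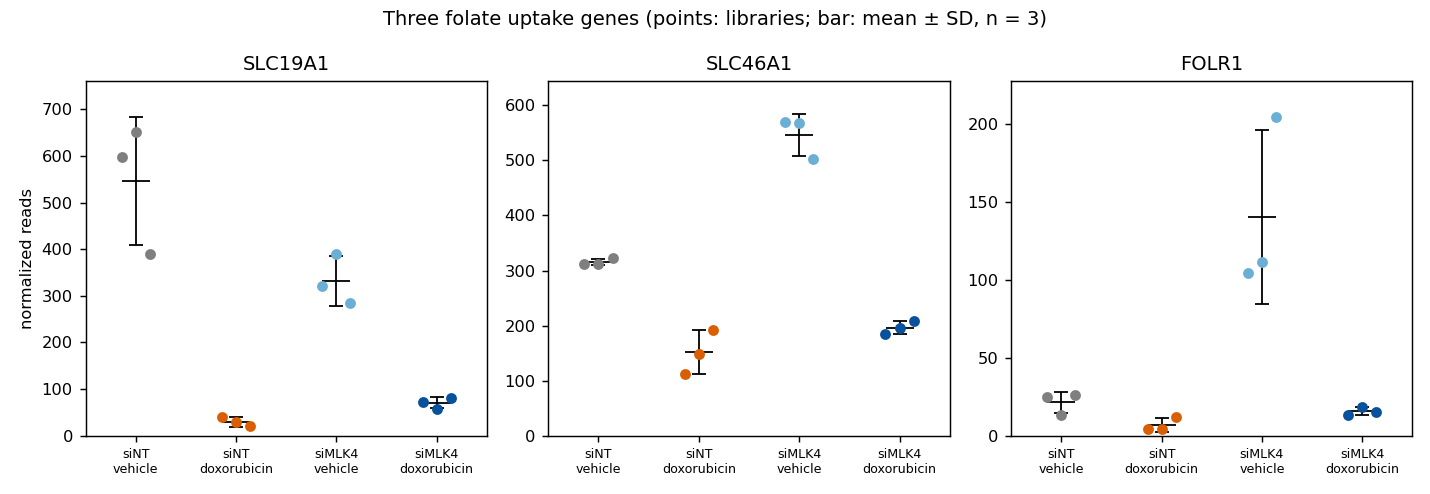
Normalized reads (y axis, from 0) of 3 folate uptake genes in the 4 groups (x axis), with 1 point per library and the mean ± SD (n = 3) as a bar. SLC19A1 was highest in siNT vehicle libraries, at 390 to 651, whereas SLC46A1 and FOLR1 were highest in siMLK4 vehicle libraries, at 503 to 569 and 104 to 204.

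**Figure D4:**
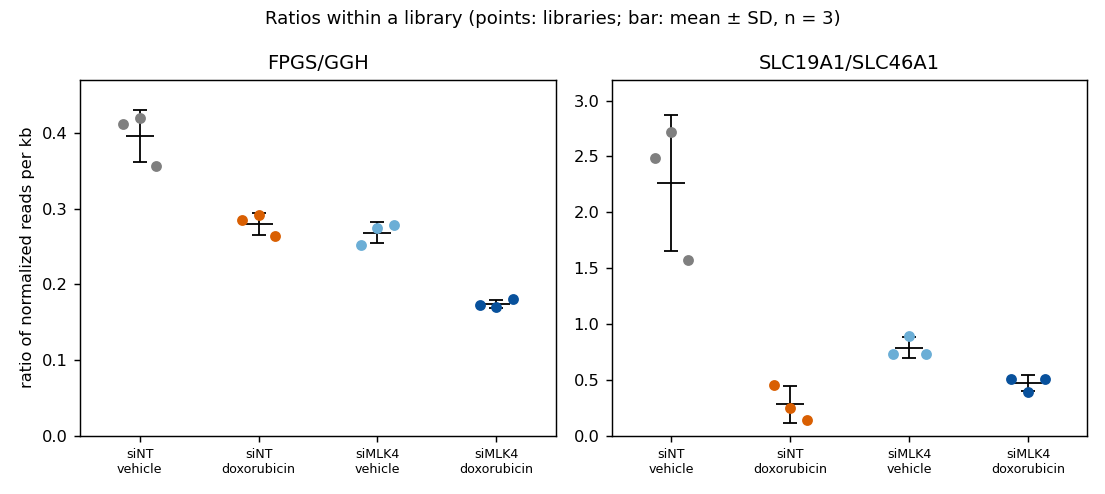
Ratios within a library of normalized reads per kb (y axis, from 0) in the 4 groups (x axis), with 1 point per library and the mean ± SD (n = 3) as a bar. FPGS/GGH was lowest in siMLK4 doxorubicin libraries, at 0.170 to 0.180, and SLC19A1/SLC46A1 was above 1 in the siNT vehicle libraries alone.

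Among the efflux pumps that can carry folates, ABCC2 fell with doxorubicin in both siRNA groups, by 1.01 in siNT cells and 1.37 in siMLK4 cells (SE 0.14 each; adjusted p = 3.6e-05 and 2.7e-06). ABCG2 was called in siMLK4 cells, at −0.96 (SE 0.10, adjusted p = 2.8e-06), and its change in siNT cells was −0.45. ABCC3 had 660, 673 and 665 normalized reads in siNT vehicle libraries and 301, 218 and 295 in siMLK4 vehicle libraries. ABCC3 fell with siMLK4 by 1.16 in vehicle and by 1.16 with doxorubicin (SE 0.12 each; adjusted p = 1.1e-05 and 1.4e-05). SLC19A2 and SLC19A3, the thiamine carriers of the SLC19 family, were not called in any comparison with the deposited values as they stand. With doxorubicin in siMLK4 cells SLC19A2 was called higher with quantile normalization, at 0.77, with library totals, at 1.01, and with log2(normalized reads + 8), at 0.81, and SLC19A3 was called lower on the last of these scales, at −0.90. The largest change of SLC19A2 in the deposited values was 0.71 with doxorubicin in siMLK4 cells (SE 0.10, adjusted p = 5.4e-05), opposite in sign to that of SLC19A1.

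The other folate and one-carbon genes formed a list of 75, of which 65 were in the table. The list was drawn up by function with earlier results known. With doxorubicin, 21 of the 65 were called lower and 2 higher in siNT cells, and 13 lower and 5 higher in siMLK4 cells. They had a median log2 fold change of −0.45 with siNT and −0.30 with siMLK4, against 0.00 and 0.02 over all genes. With only the groups compared, with or without a replicate block, E2F8 was also called higher, at 0.82 in siNT cells and 0.85 in siMLK4 cells. With library totals as the scale, on which the median of all genes was 0.24 and 0.21, the counts were 14 lower and 5 higher in siNT cells and 9 lower and 8 higher in siMLK4 cells. On that scale 4198 genes were called higher and 1524 lower in siNT cells, against 2060 and 1799 with the authors' size factors, and 3929 and 1794 in siMLK4 cells, against 2147 and 1802.

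Of 8 mitochondrial folate enzymes measured, 4 were called lower with doxorubicin in siNT cells (SHMT2, ALDH1L2, GCSH and DLD) and 2 in siMLK4 cells (GCSH and DLD). In either siRNA group 0 were called higher, against 10.6% of all genes lower in each comparison and 12.1% and 12.6% higher. The DLD calls were lost with library totals, at −0.66 in siNT cells and −0.68 in siMLK4 cells. In siNT cells the DLD call was also lost with quantile normalization, at −0.71. SHMT2, the mitochondrial counterpart of SHMT1, had 4237, 3173 and 3280 normalized reads in siNT vehicle libraries and 1701, 1625 and 2124 with doxorubicin, and it fell by 0.95 (SE 0.17, adjusted p = 0.00031), or by 0.73 and short of the threshold with library totals. The ratio of SHMT1 to SHMT2 per kb was 0.287 ± 0.040 in siNT vehicle libraries and 0.494 ± 0.038 in siNT doxorubicin libraries (SD, n = 3 each), with no overlap. In siMLK4 libraries it was 0.344 ± 0.036 with vehicle and 0.487 ± 0.041 with doxorubicin (SD, n = 3 each).

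MTHFD2, the mitochondrial dehydrogenase that acts before MTHFD1L, had 14440, 7486 and 12600 normalized reads in siNT vehicle libraries and 6429, 7029 and 7434 with doxorubicin. Replicate 2 was low among the siNT vehicle libraries, and without it the doxorubicin response of −0.67 (SE 0.20, adjusted p = 0.011) became −0.95 and was called. In siMLK4 cells the doxorubicin response of MTHFD2 was 0.10 (SE 0.20, adjusted p = 0.7). The siMLK4 difference of MTHFD2 in vehicle was −0.71, and it was called without siNT vehicle replicate 2, at −0.996, or without siMLK4 vehicle replicate 3, at −0.88. The siNT vehicle replicate 2 library was also low for PSAT1, with 3383 normalized reads beside 7258 and 6778, and for the stress-response factor ATF4, with 8786 beside 16688 and 11666. ALDH1L2, which oxidizes formyl-folate in mitochondria, was lower in siMLK4 than in siNT vehicle libraries by 1.38 (SE 0.23, adjusted p = 0.00075), a call that was lost when only the groups compared were fitted. It also fell with doxorubicin in siNT cells, by 1.07 (SE 0.23, adjusted p = 0.0014), a call that was lost without siNT vehicle replicate 3, at −0.74.

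Of 10 genes of de novo purine synthesis, in which formyl-folate donates carbon units, 4 were called lower with doxorubicin in siNT cells and 3 in siMLK4 cells, and 0 higher, against 10.6% of all genes lower in each comparison and 12.1% and 12.6% higher. PFAS, which makes the amidine intermediate, had 1322, 1454 and 1391 normalized reads in siNT vehicle libraries and 207, 304 and 340 with doxorubicin. It fell by 2.13 in siNT cells and by 1.78 in siMLK4 cells (SE 0.16 each; adjusted p = 2e-07 and 9.3e-07). PAICS fell in siNT cells by 0.89, and ATIC, a folate-dependent enzyme of the last steps, fell in siMLK4 cells by 0.76 (SE 0.11 each; adjusted p = 1.1e-05 and 5.6e-05). In the other siRNA group PAICS was at −0.73 and ATIC at −0.72 (adjusted p = 5.5e-05 and 8.7e-05), both just short of the fold change threshold. IMPDH2, which commits purines to GMP, was called lower in all 4 comparisons, by 0.94 and 0.90 with doxorubicin and by 0.83 and 0.79 with siMLK4 (SE 0.16 each), whereas IMPDH1 was called in siNT cells with doxorubicin, at −0.84, and was at −0.36 in siMLK4 cells (adjusted p = 0.0082). With library totals as the scale, the calls of PAICS, ATIC and IMPDH1 with doxorubicin and those of IMPDH2 other than with doxorubicin in siMLK4 cells were lost. With quantile normalization the calls of PAICS, ATIC and IMPDH1 with doxorubicin were lost too, at −0.60, −0.69 and −0.70. The ATIC call was also lost without siMLK4 vehicle replicate 2, at −0.73, or siMLK4 doxorubicin replicate 1 or 2, at −0.746 and −0.67. The siRNA call of IMPDH2 in vehicle was lost without siNT vehicle replicate 1, at −0.73. That with doxorubicin was lost without siNT doxorubicin replicate 3 or siMLK4 doxorubicin replicate 1 or 2, at −0.66, −0.73 and −0.70. In vehicle it was also lost with quantile normalization, at −0.66, and with only the groups compared, at −0.83 (adjusted p = 0.011).

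Among 6 genes of serine and glycine supply, 4 were called lower with doxorubicin in siNT cells and 0 in siMLK4 cells by limma at these thresholds, where 10.6% of all genes were called lower in each. PHGDH, PSAT1 and PSPH, the 3 enzymes that make serine, fell in siNT cells, at log2 fold changes of −1.12, −1.66 and −1.81 (adjusted p = 0.0008, 9.7e-05 and 0.00015). In siMLK4 cells their fold changes were −0.70, −0.49 and −0.91 (adjusted p = 0.016, 0.12 and 0.017). There PSPH was called with a replicate block across all libraries (adjusted p = 0.0017), and PHGDH and PSPH with the transcript length slope as a covariate, at −0.78 and −0.997. The differences between the responses, 0.42, 1.17 and 0.90, had adjusted p = 0.62, 0.14 and 0.35. The glycine transporter gene SLC6A9 fell in siNT cells by 1.09 (SE 0.29, adjusted p = 0.0047). This call was lost with library totals, at −1.06 (adjusted p = 0.012). It was also lost without replicate 1 or 3 of siNT vehicle or replicate 1 or 2 of siNT doxorubicin, at −0.85 to −1.05.

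Of 11 genes of deoxynucleotide supply, 2 were called lower in siNT cells and 1 lower and 1 higher in siMLK4 cells with doxorubicin, against 10.6% of all genes lower in each and 12.1% and 12.6% higher. DCTD, which makes the deoxyuridylate that TYMS uses, fell in both, by 0.98 and 1.23 (SE 0.12 each; adjusted p = 1.2e-05 and 1.8e-06). RRM2B, a ribonucleotide reductase subunit, fell in siNT cells by 0.87, and TK1, which salvages thymidine, rose in siMLK4 cells by 0.76 (SE 0.13 each; adjusted p = 5.7e-05 and 0.0002). RRM2B was at −0.61 in siMLK4 cells (adjusted p = 0.0011). TK1 was at 0.60 in siNT cells (adjusted p = 0.0014), and was called there with library totals, at 0.85, and with quantile normalization, at 0.84. The RRM2B call was lost with library totals, at −0.72. RRM2B was also called lower with siMLK4 in vehicle, at −0.79, a call that was lost with library totals, with quantile normalization, with only the groups compared, and without siNT vehicle replicate 3 or siMLK4 vehicle replicate 3, at −0.70 and −0.69. DCTD was called lower with siMLK4 under doxorubicin, at −0.80, and this call was lost without siNT doxorubicin replicate 3 or siMLK4 doxorubicin replicate 2, at −0.72 and −0.74. Among 10 genes of the methionine cycle and vitamin B12, 4 were called lower in siNT cells and 3 in siMLK4 cells, against 10.6% of all genes in each. CBS, which draws homocysteine away from MTR, had 204, 98.6 and 191 normalized reads in siNT vehicle libraries and 19.4, 25.5 and 32.4 with doxorubicin, and it fell by 1.60 (SE 0.18, adjusted p = 7.2e-06). In siMLK4 cells CBS was at −0.71 (adjusted p = 0.0046), short of the fold change threshold. It was called lower there with quantile normalization, at −0.80, with log2(normalized reads + 8), at −0.98, and with limma-voom, at −1.07. The siMLK4 difference of CBS with doxorubicin was 0.58, and it was called with library totals, at 1.20. AHCY, which makes homocysteine, and MMADHC and CD320, which handle vitamin B12, were called lower in both siRNA groups, at −0.92, −0.94 and −0.99 in siNT cells. There the CD320 call was lost without siNT vehicle replicate 1, at −0.75, and the MMADHC call with library totals, at −0.72. The AHCY calls were lost with library totals, at −0.69 in siNT cells and −0.59 in siMLK4 cells, and with quantile normalization, at −0.57 and −0.46. The CD320 call in siMLK4 cells was lost with both scalings, at −0.67 and −0.74. The calls of TK1, AHCY and CD320 in siMLK4 cells lay close to the threshold, and were lost at 0.70 without siMLK4 vehicle replicate 1 for TK1, and at −0.66 and −0.63 without siMLK4 vehicle replicate 3 for AHCY and CD320.

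**Figure D5:**
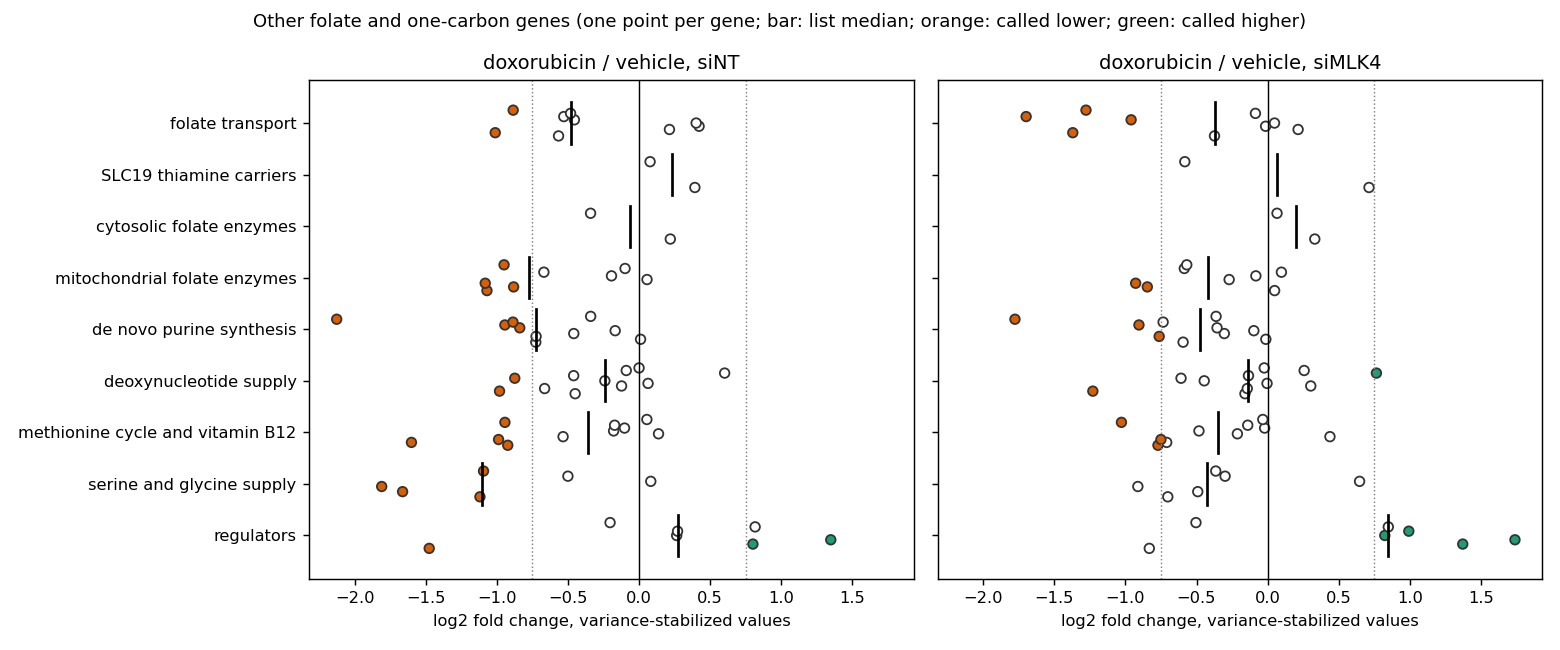
Log2 fold changes on the variance-stabilized scale (x axis) of the other 65 genes with doxorubicin in siNT cells (left) and siMLK4 cells (right), grouped by list (y axis), with 1 point per gene, the list median as a bar, and dotted lines at ±0.75. Orange points were called lower (21 and 13 genes) and green points higher (2 and 5 genes), and the lowest point in both panels is PFAS, at −2.13 and −1.78.

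Between siRNA groups, siMLK4 lowered 6 of the 65 genes and raised 1 in vehicle, and lowered 5 and raised 2 with doxorubicin. With only the groups compared, with or without a replicate block, PSAT1 was also called higher with doxorubicin, at 0.78. ABCC3, PAICS, IMPDH2 and MYC were called lower under both treatments. The PAICS fold changes were −0.94 in vehicle and −0.78 with doxorubicin. Its call in vehicle was lost with quantile normalization, at −0.71, and that with doxorubicin with library totals, with quantile normalization and without siNT doxorubicin replicate 3, at −0.71, −0.73 and −0.72. MYC, a transcription factor known to act on many nucleotide synthesis genes, fell by 1.23 in vehicle and by 1.53 with doxorubicin (SE 0.14 each; adjusted p = 3.5e-05 and 7.7e-06). E2F1 and E2F2, S-phase transcription factors, rose with doxorubicin in siNT cells by 0.80 and 1.35 and in siMLK4 cells by 1.37 and 1.74, and were higher in siMLK4 than in siNT cells with doxorubicin by 0.91 and 0.78. The E2F1 call in siNT cells was lost without either doxorubicin replicate 1 or vehicle replicate 3 of siNT, at 0.67 each. It was also lost with the transcript length slope as a covariate, at 0.67. The siRNA call of E2F2 was lost without siNT doxorubicin replicate 3 or siMLK4 doxorubicin replicate 2, at 0.64 and 0.68. Without siMLK4 doxorubicin replicate 1 the E2F2 call was lost too, at 0.78 (limma adjusted p = 0.011). ATF4 fell with doxorubicin in siNT cells by 1.48 (SE 0.25, adjusted p = 0.00022), and in siMLK4 cells its change was −0.83 (adjusted p = 0.012), which was called with a replicate block across all libraries (adjusted p = 0.0045) and with the transcript length slope as a covariate, at −0.94. It was also called without siMLK4 vehicle replicate 1 or siMLK4 doxorubicin replicate 3, at −0.99 and −1.002. No gene of the list was called for the difference between the doxorubicin responses by limma or by limma-voom, and 18 of 65 had an unadjusted p under 0.05, as did 14.5% of all genes. With library totals the counts between siRNA groups were 4 lower and 4 higher in vehicle and 3 lower and 5 higher with doxorubicin, while all genes split into 483 lower and 1358 higher, and 548 lower and 903 higher. With the authors' size factors all genes split into 534 lower and 427 higher in vehicle, and 498 lower and 452 higher with doxorubicin.

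The genes with the pattern most like SLC19A1 were sought by Pearson's r over the 12 libraries on the variance-stabilized scale, among 11056 genes with a mean of at least 100 normalized reads. The 5 with the highest r were NPRL3 (0.986), DVL1 (0.984), GPC1 (0.984), NDRG4 (0.983) and SKP2 (0.982). The 5 with the lowest r were MYLIP (−0.990), FBXO32 (−0.988), ABCA5 (−0.986), NIPAL2 (−0.983) and ZNF433 (−0.980). These points share libraries and their depth, and the treatment sets most of their range. After group means were subtracted, r was 0.73 for NPRL3, 0.17 for NDRG4 and −0.83 for MYLIP. DVL1, a Wnt pathway scaffold, had 2556, 2097 and 1780 normalized reads in siNT vehicle libraries, 505, 454 and 410 in siNT doxorubicin libraries, 1260, 1264 and 1354 in siMLK4 vehicle libraries and 689, 578 and 641 in siMLK4 doxorubicin libraries. FBXO32, a ubiquitin ligase subunit, ran the other way, with 137, 105 and 188, then 1161, 1146 and 1072, then 220, 235 and 315, and then 654, 659 and 675 normalized reads in the same groups.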

How the data were processed

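According to the Methods and the submitters' processing notes, the authors trimmed reads (Trimmomatic 0.39), aligned them (HISAT2), counted them per gene by strand (HTSeq 0.6.0) and processed counts with DESeq2 1.26.0. The build is given as GRCh38 in the Methods and hg19 in the notes, and positions here come from GENCODE 44 on GRCh38. The deposited values are log2-like, made by the authors with a variance-stabilizing transformation. Inverting it gave whole reads, within 0.05, for 100% of values, and size factors from 0.852 to 1.20. The 17013 genes were fitted with limma 3.58.1 in R 4.3.3 (variance trend, 12 libraries, 4 group means), with Benjamini-Hochberg adjustment over all genes. Summaries used Python 3.11.15. No library was left out.

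The members and lists were chosen with earlier results of these data known. Named are all members, MTHFD2 and SHMT2, up to 3 called genes per list and direction, and the 5 genes most and least like SLC19A1. FOLR1 is also named for its difference between responses, and SLC19A2 was named after its values were seen. ABCG2, IMPDH1, SLC6A9, SLC19A3 and E2F8 are given outside this rule. Some genes that the rule names are not reported here and were left out of the lists and their counts. Alternatives were other scales, pseudocounts, a filter of 10 reads in every library (13295 genes), limma-voom, no variance trend, fewer groups in the fit, other thresholds, a replicate block and leaving out each library. In a test on simulated data for doxorubicin in siNT cells, run on 17013 genes, 78.7% of 89 genes changed 2-fold and 100% of 111 changed 4-fold were called, and 0 unchanged genes. Simulated counts varied independently between libraries, with the same dispersion for all genes and without the length-related shifts of the real libraries. Changed genes were drawn from those above a minimum mean. The test thus checks the code, and its shares do not carry over to the real data. Whether replicate numbers pair libraries was read from their deviations. Correlations of same-numbered libraries were 0.46, 0.105 and 0.205 for doxorubicin in siNT cells and 0.19, 0.516 and 0.559 for siMLK4 with doxorubicin, all over 0.1. In the other comparisons the lowest was −0.723.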

Additional observations from a re-analysis of the deposited data

Results flagged for a closer look

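The doxorubicin response of FOLR1, the gene of folate receptor alpha, differed between siMLK4 and siNT cells by −1.17 on the log2 scale (SE 0.26, limma adjusted p = 0.040), past 0.05 but not past the threshold of 0.01 used for calls. FOLR1 was lower with doxorubicin in 3 of 3 libraries of each siRNA group, and its siNT doxorubicin libraries held between 4.07 and 12.2 normalized reads. Over the alternatives the adjusted p ranged from 0.0099 with the transcript length slope as a covariate, chosen after seeing the data, to 0.39 with limma-voom. It was 0.24 with log2(normalized reads + 1).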

How the results depend on the processing

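With the threshold at an adjusted p under 0.05 and no fold change limit, called genes numbered 9745 and 9858 for doxorubicin in siNT and siMLK4 cells, 4381 and 4219 for siMLK4 in vehicle and with doxorubicin, and 204 for the difference of responses, and the other folate genes 39, 39, 21, 23 and 1. For siMLK4 in vehicle, 961 genes became 1841 with library totals, 1613 and 1611 with pseudocounts of 1 and 8, 1483 with limma-voom and 611 with only the groups compared, where 4 other folate genes were called against 7. For siMLK4 with doxorubicin, 950 became 1451 with library totals, 1484 with a pseudocount of 8 and 1466 with limma-voom. The 47 differences of responses became 29 with limma-voom and 231 with the transcript length slope as a covariate, which called 1 other folate gene, FOLR1.

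With a replicate block across all 12 libraries the counts were 3854, 3937, 951, 945 and 40. With the replicate block and only the groups compared, chosen after seeing the data, 0 genes (4184 at an unadjusted p under 0.05) and 0 other folate genes were called for siMLK4 in vehicle, where replicate numbers do not pair the libraries. No member's call changed under either block. With the block across all libraries, the calls of the other folate genes changed for PSPH and ATF4, which were called lower with doxorubicin in siMLK4 cells. With the block and only the groups compared, these 2 calls were also made. There E2F8 was called higher with doxorubicin in siNT and siMLK4 cells (adjusted p = 2.3e-06 and 1e-05). PSAT1 was called higher with siMLK4 under doxorubicin, at 0.78 (adjusted p = 2e-14, against 0.042 in the limma fit of all groups). With 3 libraries per group, the block leaves few residual degrees of freedom, so such a small p-value is not read as stronger evidence. Without the block, the same groups gave these E2F8 and PSAT1 calls too (adjusted p = 0.0077, 0.007 and 0.0036).

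Leaving out 1 library, the differences of responses called ranged from 0, without siMLK4 doxorubicin replicate 1 (1856 at an unadjusted p under 0.05), to 37, without siMLK4 doxorubicin replicate 3. The other folate genes called for siMLK4 with doxorubicin ranged from 3, without siNT doxorubicin replicate 3, to 8, without siMLK4 doxorubicin replicate 3, against 7, and were 4 without siMLK4 doxorubicin replicate 2. Near 0, the siMLK4 difference of SHMT2 in vehicle turned from −0.12 to 0.025 with library totals and 0.062 with quantile normalization, and lay between −0.25 and 0.014 with 1 library left out. That of MTHFD2 with doxorubicin lay between −0.0044 and 0.0995 with 1 library left out. The cause was not tested. Of the fold changes of members under alternatives, 912 stayed within the replicate SD and 32 moved further, 16 of them for SLC19A1 (under library totals, pseudocounts or limma-voom). Many of the 912 could not move. The read filter, variance trend, thresholds, fewer groups in the fit and replicate blocks leave a fold change as it was. So does leaving out a library of a group outside the comparison. The 912 are therefore no measure of how stable these values are. Genes with few reads, such as FOLR1 with doxorubicin, are limited by depth.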
